A study of Mus musculus with 6 samples.

Results

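Endothelial identity and angiogenesis genes were followed in RNA-seq libraries of mouse heart. The set held 43 genes that were listed by symbol and found in the expression table through their Ensembl identifiers, out of 54532 identifiers in all. They fell into 5 groups: 19 genes of endothelial identity, 13 genes of VEGF and angiopoietin signaling, 4 Notch and arterial genes, 4 genes of endothelial activation and adhesion, and 3 lymphatic genes. The rule that chose them used no expression value, but the genes were listed with earlier results of these data known.

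The study compared a two-hit model of heart failure with preserved ejection fraction (HFpEF) with healthy controls (Chow). HFpEF mice ate food that drew 60% of its calories from fat (high-fat diet) and were given the nitric oxide synthase inhibitor L-NAME at 0.5 g/L in the drinking water for 12 weeks. Chow mice were kept on normal chow and plain water for the same time. All were male C57BL/6 mice with no transgene, 6 to 8 weeks old at the outset. Each group had 3 libraries from separate animals. The labels call the tissue heart, and the methods describe it as myocardium of the left ventricle. Since both treatments were given together, diet and L-NAME cannot be told apart, and L-NAME acts directly on an enzyme of the endothelium.

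Endothelial cells line every vessel and are held together by the junction proteins VE-cadherin (Cdh5) and PECAM-1 (Pecam1). Their growth is steered by VEGF ligands, which bind the receptors Kdr, Flt1 and Flt4, and by angiopoietins, which bind Tek. Notch signaling, through the ligand Dll4, limits sprouting and marks arteries, whereas Prox1 sets lymphatic fate. Inflamed endothelium displays the adhesion molecules Vcam1, Icam1, Sele and Selp, which capture leukocytes. The dense capillary bed of the heart also carries fatty acids to cardiomyocytes, a task in which Fabp4 takes part.

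The libraries held 13076772 to 16027084 reads recovered from the FPKM values (a read number scaled to exon length and a library total). That total was not the depth: in HFpEF replicate 3 it was 19316914 with 15196287 reads recovered. In Chow replicate 1 it was 14239712 with 15574914 reads, and how it was set is not stated. HFpEF replicate 3 stood apart from the other libraries. It lay at 75.5 on the first principal component, against 11.6 and 12.7 for HFpEF replicates 1 and 2 and -35.8 to -31.7 for Chow, and 7.17% of its reads were mitochondrial, against 20.07% to 26.0% elsewhere. Although the methods describe left ventricle, atrial genes were read in some libraries, and the reason was not tested. Their summed level (Nppa, Myl7, Myl4, Sln and Bmp10, a list added after the data were seen) was 13.3, 16.2 and 538 FPKM in Chow and 2453, 3834 and 20.6 FPKM in HFpEF. Results are therefore given with and without HFpEF replicate 3, and atrial levels stand beside the genes that followed them.

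Most of the endothelial genes lay a little below their Chow level in HFpEF hearts, and a small group lay well above it. Across all 6 libraries, 41 of the 43 genes were tested, each of them at 0.5 FPKM or more in every library, and Sele and Selp were too low. None of the 41 reached an adjusted p under 0.05 by limma with Benjamini-Hochberg adjustment over 14227 genes, where 0.0984% of all genes did. None met the study's rule that adds a log2 fold change of at least 2, applied here to the limma fit (all genes 0.0562%). The study applied its rule to DESeq2 results and reported far more genes, so that share is not comparable with the study's count. The voom method of limma on the recovered reads also called none, with 16 lower and 3 higher at an unadjusted p under 0.05 (all genes 13.5% and 10.1%). Before adjustment, 13 members had a p under 0.05 and lower values in HFpEF (31.7% of those tested, against 13.1% of all genes), and 3 had higher values (7.32%, against 10.2%). In 15 members every HFpEF library lay below every Chow library (36.6%, against 19.8% of all genes), and in 3, Plvap, Vcam1 and Pdpn, every HFpEF library lay above (7.32%, against 15.5%). The excess of lower members depended on scaling. After quantile normalization 8 of the 41 were lower without overlap, close to the share of all genes there (19.3%).

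Without HFpEF replicate 3, 8 members passed the adjusted threshold by limma. Cdh5, Tie1, Ly6c1, Fabp4, Kdr, Nrp2 and Apln fell, where 5.5% of all genes did, and Vcam1 rose, where 2.85% did. Without HFpEF replicate 2, 1 member passed with a lower value, Car4, where 0.0422% of all genes did, and leaving out any other single library left 0. In bulk tissue, fewer endothelial cells and less RNA per endothelial cell cannot be told apart.

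**Figure D1:**
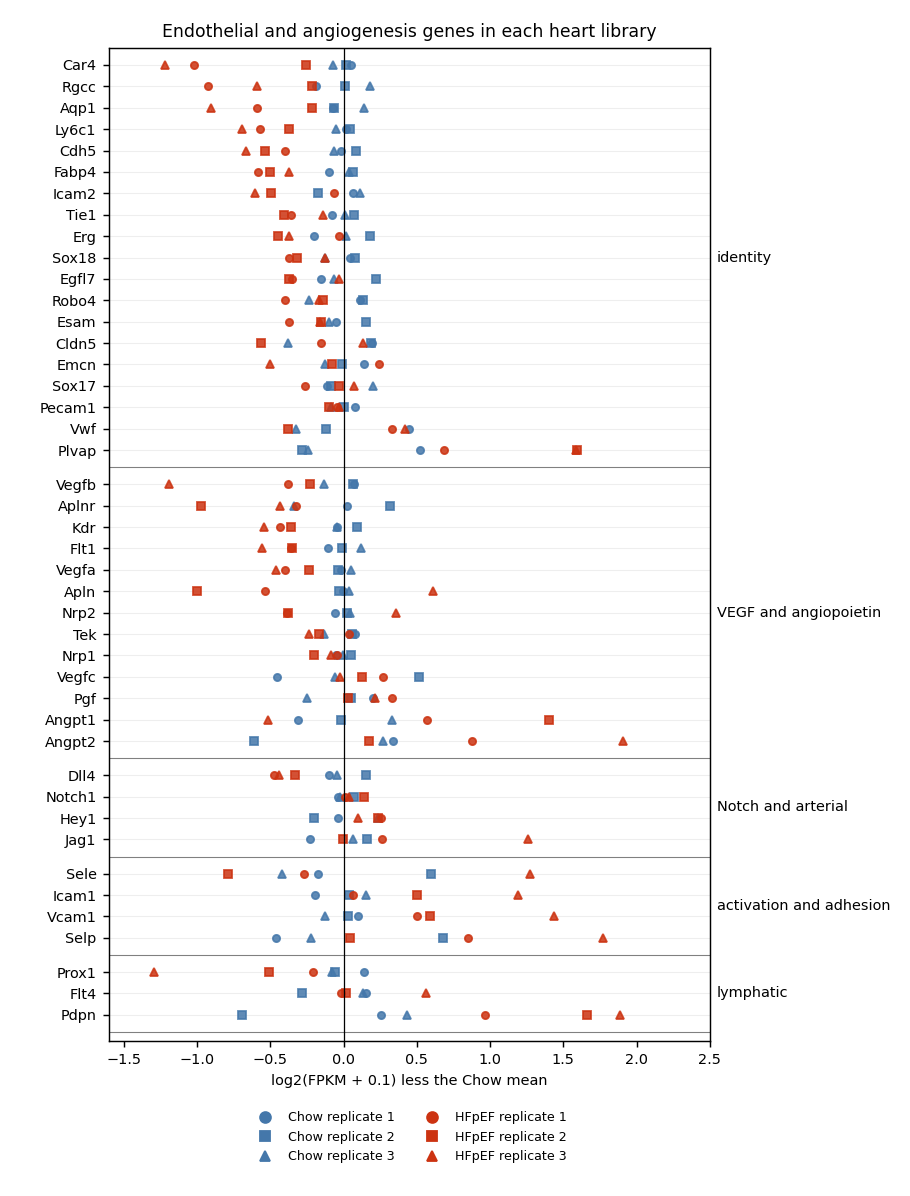
Each of the 43 genes in each library, as log2(FPKM + 0.1) less the mean of the 3 Chow libraries, by group of genes. Points are single libraries (blue Chow, red HFpEF; circle, square and triangle for replicates 1, 2 and 3). Of the 19 identity genes, 9 have all red points to the left of the blue ones, and Plvap, Vcam1 and Pdpn have all red points to the right.

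Identity genes carried most of the lower values. Of the 19, 17 had a negative log2 fold change and 2, Plvap and Vwf, a positive one. The median over the group was -0.27 (all genes -0.01), and -0.35 without HFpEF replicate 3. The levels themselves remained high in all libraries, with Aqp1, Fabp4 and Cdh5 the most abundant per kilobase, so an endothelial compartment was read in every heart.

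Cdh5 (chr8:104101625-104144511, plus strand, GRCm38), the junction cadherin that defines endothelium, measured 70.7, 76 and 68.7 FPKM in Chow and 54.3, 49.4 and 45.3 FPKM in HFpEF. The HFpEF libraries were all below the Chow libraries, and replicate 3 was the lowest. The mean went from 71.8 ± 3.78 to 49.6 ± 4.52 FPKM (SD, n = 3 each), a log2 fold change of -0.54 ± 0.12 (SE, limma, adjusted p = 0.107). Without HFpEF replicate 3 it fell by 0.47 on the log2 scale (adjusted p = 0.0236 by limma).

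Pecam1 (chr11:106654217-106750628, minus strand), the other junction molecule used most often to mark endothelium, overlapped between groups. It measured 36.4, 34.6 and 32.4 FPKM in Chow and 33.4, 32.1 and 33.7 FPKM in HFpEF. Its log2 fold change was -0.06 ± 0.10 (limma, adjusted p = 0.717), and 0.19 when libraries were scaled to equal sums of nuclear genes, a scaling that moved the median of all genes by 0.24.

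Tie1, an orphan receptor that modulates angiopoietin signaling, stood at 31.5, 35 and 33.4 FPKM in Chow and 25.9, 25 and 30.2 FPKM in HFpEF. HFpEF replicate 3 came nearest to Chow. Tie1 had a log2 fold change of -0.30 ± 0.11 (limma, adjusted p = 0.187), and without replicate 3 it fell by 0.39 (limma, adjusted p = 0.0324).

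Ly6c1, a surface antigen abundant on capillary endothelium, gave 54.6, 55.7 and 52.1 FPKM in Chow and 36.4, 41.7 and 33.3 FPKM in HFpEF. The groups were well separated, with a log2 fold change of -0.55 ± 0.12 (limma, adjusted p = 0.107). Without HFpEF replicate 3 it fell by 0.47 (limma, adjusted p = 0.0267). Ly6c1 shares 32.8% of its 50-base windows with other genes, mostly with the monocyte gene Ly6c2, so its reads are uncertain to that extent, although Ly6c2 itself was listed at only 0.0527 to 0.68 FPKM.

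Fabp4, a fatty acid carrier of capillaries and adipocytes, measured 84.3, 94.8 and 92.9 FPKM in Chow and 60.5, 64 and 69.8 FPKM in HFpEF. HFpEF values were lower in all 3 libraries, at -0.49 ± 0.12 on the log2 scale (limma, adjusted p = 0.118), and without replicate 3 they fell by 0.54 (limma, adjusted p = 0.0172). Adipocyte markers moved the opposite way: Cfd was at 0 in all Chow libraries and at 35.3, 37.8 and 22.9 FPKM in HFpEF, and the summed level of 10 adipocyte genes went from 8.28 to 8.49 FPKM in Chow to 43.3 to 106 FPKM in HFpEF.

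Car4, a carbonic anhydrase on the capillary surface, had the most negative fold change of the 41. Its values were 11.3, 11 and 10.3 FPKM in Chow and 5.29, 9.07 and 4.61 FPKM in HFpEF, so that HFpEF replicate 2 lay much closer to Chow than the others. The log2 fold change was -0.84 ± 0.25 (limma, adjusted p = 0.139). It was -0.64 without HFpEF replicate 3 (limma, adjusted p = 0.148), and without HFpEF replicate 2 Car4 fell by 1.12 (limma, adjusted p = 0.0439). Rgcc, a cell cycle regulator expressed in endothelium, ran 34.7, 39.7 and 44.8 FPKM in Chow and 20.8, 34.1 and 26.2 FPKM in HFpEF, again with replicate 2 almost touching the Chow range. Aqp1, the water channel of capillaries, read 176, 177 and 203 FPKM in Chow and 123, 159 and 98.8 FPKM in HFpEF. It too was nearest to Chow in replicate 2. The log2 fold changes of Rgcc and Aqp1 were -0.58 ± 0.20 and -0.57 ± 0.20 (limma, adjusted p = 0.171 and 0.169). Without HFpEF replicate 3 these fold changes were -0.57 and -0.41 (limma, adjusted p = 0.206 and 0.122).

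Esam, a junction adhesion molecule, and Sox18, an endothelial transcription factor, also had separate groups with smaller differences. Esam read 23.4, 27 and 22.6 FPKM in Chow and 18.7, 21.8 and 21.7 FPKM in HFpEF, a log2 fold change of -0.23 ± 0.12, which turned to 0.03 under equal sums of nuclear genes. Sox18 read 33.4, 34.2 and 29.7 FPKM in Chow and 25, 26 and 29.6 FPKM in HFpEF, a log2 fold change of -0.27 ± 0.12. In both, the gap between the nearest HFpEF and Chow libraries was small.

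The remaining identity genes overlapped between groups. Egfl7, a secreted vessel protein, Erg, an ETS factor that maintains endothelial fate, Robo4, a guidance receptor that stabilizes vessels, and Icam2, a constitutive adhesion molecule, had log2 fold changes of -0.25, -0.29, -0.24 and -0.39. Emcn, a sialomucin of capillaries and veins, Cldn5, a tight junction claudin, and Sox17, an arterial SOX factor, came out at -0.12, -0.20 and -0.07. Direction was unsteady for several of them: under equal sums of nuclear genes Robo4, Emcn, Cldn5 and Sox17 were above 0, and Emcn was 0.08 without HFpEF replicate 3. Vwf, the clotting factor carrier of larger vessels and endocardium, ranged from 8.25 to 14.2 FPKM in Chow and from 7.93 to 13.9 FPKM in HFpEF, with a log2 fold change of 0.12 that turned to -0.03 without HFpEF replicate 3.

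Plvap (chr8:71497765-71511752, minus strand) went the other way from the rest of the identity genes. It encodes the diaphragm protein of fenestrated and venous endothelium and measured 14.1, 8.02 and 8.28 FPKM in Chow and 15.8, 29.8 and 29.6 FPKM in HFpEF. HFpEF replicate 1 was only slightly above Chow replicate 1, and the other libraries were far apart. The HFpEF mean was 2.47 times the Chow mean (25.1 ± 8.01 against 10.1 ± 3.46 FPKM, SD, n = 3 each), at a log2 fold change of 1.29 ± 0.32 that did not pass (limma, adjusted p = 0.119). Without HFpEF replicate 3 it was 1.14 ± 0.38 (limma, adjusted p = 0.149).

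Genes of venous endothelium and endocardium, where Plvap is also known to be expressed, were listed separately. Nr2f2, which sets venous fate, read 2.13, 2.03 and 2.5 FPKM in Chow and 4.28, 3.77 and 3.56 FPKM in HFpEF, and Bst1 read 0.91, 0.488 and 1.17 FPKM against 1.52, 2.56 and 2.68 FPKM. Of 5 venous genes tested, these 2 had an unadjusted p under 0.05 and higher values, while Ephb4, the receptor that marks veins, had a log2 fold change of -0.08. Nr2f2 alone passed adjustment by limma without HFpEF replicate 3. Of 4 endocardial genes tested, Cytl1 alone had an unadjusted p under 0.05, with higher values. It read 11.6, 8.47 and 5.56 FPKM in Chow and 40.2, 16.7 and 17.4 FPKM in HFpEF. None of the 4 passed adjustment by limma without HFpEF replicate 3. The part of veins or endocardium in the Plvap values was not tested.

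**Figure D2:**
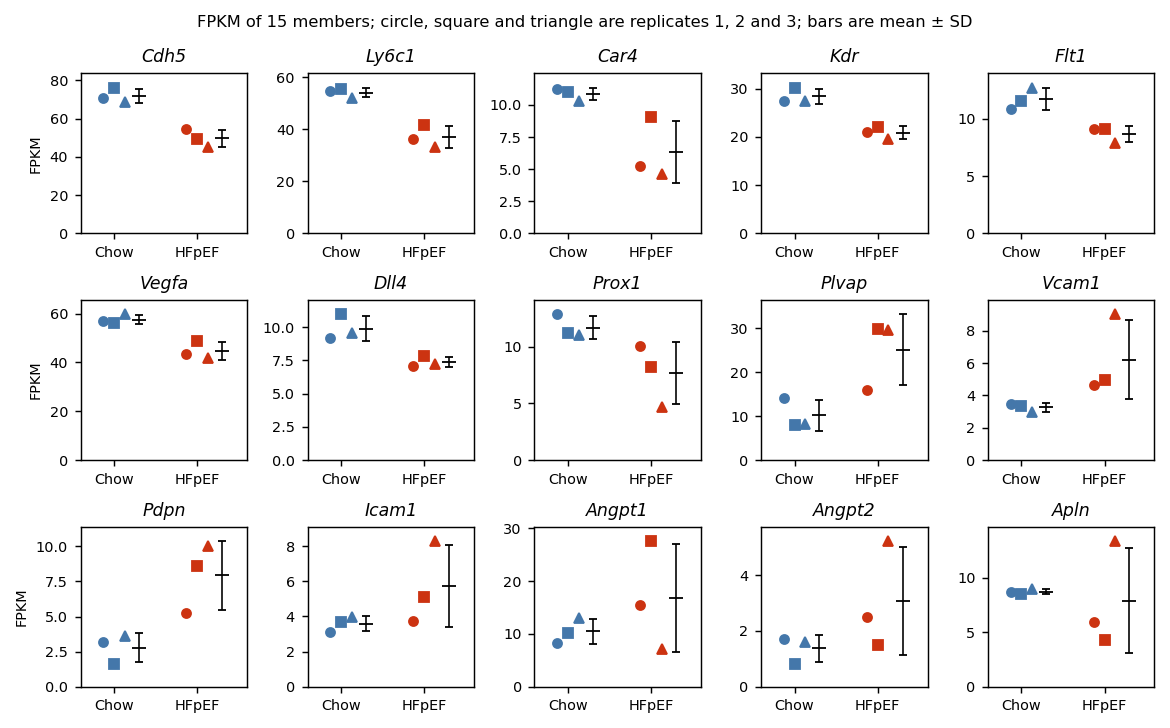
FPKM of 15 members in each library (y axis from 0, one panel per gene), with Chow in blue and HFpEF in red and the mean ± SD of 3 libraries as bars. Cdh5, Ly6c1, Kdr, Flt1, Vegfa, Dll4 and Prox1 are lower in every HFpEF library, Plvap, Vcam1 and Pdpn are higher in each, and HFpEF replicate 3 lies on the opposite side of the Chow mean from replicates 1 and 2 for Angpt1 and Apln.

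In the VEGF and angiopoietin group, the ligands Vegfa and Vegfb and the receptors Kdr and Flt1 were lower in all HFpEF libraries, whereas the other 9 genes overlapped. The median log2 fold change was -0.14, or -0.31 without HFpEF replicate 3. It was 0.11 under equal sums of nuclear genes, where the median of all genes was 0.24, so the group stayed 0.12 below all genes there.

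Vegfa (chr17:46016993-46032369, minus strand), the main ligand for vessel growth and largely a cardiomyocyte product in the heart, measured 56.9, 56.2 and 59.7 FPKM in Chow and 43.6, 48.7 and 41.8 FPKM in HFpEF. The groups were apart, with a log2 fold change of -0.37 ± 0.11 (limma, adjusted p = 0.139), and -0.32 without replicate 3 (limma, adjusted p = 0.052). Vegfb, a ligand of Flt1 linked to fatty acid uptake, read 176, 175 and 153 FPKM in Chow and 129, 143 and 73.5 FPKM in HFpEF. Replicate 3 was far below the other libraries, and the log2 fold change was -0.60 ± 0.26 with all libraries and -0.31 ± 0.09 without it (limma, adjusted p = 0.226 and 0.0925).

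Cardiomyocyte genes moved with these ligands. Of 10 cardiomyocyte markers, 9 were lower in every HFpEF library, and their median log2 ratio to the Chow mean was -0.47, -0.40 and -1.17 in HFpEF replicates 1, 2 and 3. Their summed level was 19392 to 20960 FPKM in Chow and 9058 to 15038 FPKM in HFpEF. Whether this share set the Vegfa and Vegfb values was not tested.

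Kdr (chr5:75932827-75978458, minus strand), the main signaling receptor for VEGF-A, gave 27.5, 30.2 and 27.5 FPKM in Chow and 20.9, 22.1 and 19.5 FPKM in HFpEF. The 3 HFpEF libraries were close to each other and below all Chow libraries. The log2 fold change was -0.45 ± 0.10 (limma, adjusted p = 0.11), and without replicate 3 Kdr fell by 0.40 (limma, adjusted p = 0.0337). Flt1 (chr5:147561604-147726011, minus strand), a high-affinity receptor that also acts as a decoy, gave 10.8, 11.5 and 12.7 FPKM in Chow and 9.06, 9.11 and 7.87 FPKM in HFpEF. It was as cleanly separated, at -0.42 ± 0.11 (limma, adjusted p = 0.119), and at -0.36 without replicate 3 (limma, adjusted p = 0.0696).

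The co-receptors Nrp1 and Nrp2 differed in pattern. Nrp1, which pairs with Kdr, had overlapping groups and a log2 fold change of -0.12 that turned to 0.14 under equal sums of nuclear genes. Nrp2, which pairs with Flt4 in veins and lymphatics, read 6.36, 6.74 and 6.84 FPKM in Chow and 5.05, 5.09 and 8.53 FPKM in HFpEF. Replicates 1 and 2 were below all Chow libraries and replicate 3 above them, so that Nrp2 had -0.14 ± 0.21 with all libraries and fell by 0.38 without replicate 3 (limma, adjusted p = 0.71 and 0.0494). Vegfc, the lymphatic growth factor, and Pgf, a ligand of Flt1, were low and overlapped, with log2 fold changes of 0.12 and 0.19. Vegfc turned to -0.11 without Chow replicate 1.

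Angiopoietin genes varied more than their receptor. Tek, the receptor, stayed between 16.8 and 19.5 FPKM in Chow and between 15.6 and 18.9 FPKM in HFpEF. Angpt1, the ligand that keeps vessels quiescent, read 8.34, 10.2 and 13.1 FPKM in Chow and 15.5, 27.6 and 7.23 FPKM in HFpEF. HFpEF replicates 1 and 2 were above all Chow libraries and replicate 3 below them. Its log2 fold change was 0.49 ± 0.46, and 0.99 ± 0.31 without replicate 3 (limma, adjusted p = 0.542 and 0.127). Over all alternatives it ranged from 0.03 to 0.99. Among the atrial genes, Nppa was at 9.09, 15.7 and 197 FPKM in Chow and 896, 952 and 8.02 FPKM in HFpEF. Nppa, like Angpt1, was highest in HFpEF replicate 2 and lowest in HFpEF replicate 3, and the share of atrial tissue in the Angpt1 values was not tested. Exons of an antisense gene on the other strand cover 14.2% of Angpt1, and whether reads were counted by strand is not stated. The same holds for smaller or similar parts of Sox17 (16.8%), Selp (14.1%), Icam1 (11.7%), Notch1 (9.76%) and Dll4 (5.56%).

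Angpt2, the ligand that loosens vessels and antagonizes Angpt1, read 1.69, 0.831 and 1.61 FPKM in Chow and 2.51, 1.5 and 5.22 FPKM in HFpEF. Replicate 3 was higher than any other library and replicate 2 lay within the Chow range, for a log2 fold change of 0.98 ± 0.48 (limma, adjusted p = 0.263), or 0.52 ± 0.37 without replicate 3. The ratio of Angpt2 to Angpt1 was 0.203, 0.0812 and 0.123 in Chow and 0.162, 0.0545 and 0.722 in HFpEF. HFpEF replicate 3 was above the Chow range and replicate 2 below it, and an exact two-sided permutation test gave p = 0.8 (the smallest possible with 3 libraries against 3 is 0.1).

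Apln, the peptide apelin made by sprouting tip cells, was very even in Chow, at 8.7, 8.55 and 8.95 FPKM, and uneven in HFpEF, at 5.99, 4.31 and 13.4 FPKM. Replicates 1 and 2 were below Chow and replicate 3 above it. It had -0.31 ± 0.38 with all libraries and fell by 0.77 without replicate 3 (limma, adjusted p = 0.639 and 0.0337), and it was 0.03 without HFpEF replicate 2. Its receptor Aplnr, found on veins and capillaries, read 16.7, 20.4 and 12.9 FPKM in Chow and 13, 8.28 and 12.1 FPKM in HFpEF, where replicate 1 just exceeded the lowest Chow library, with a log2 fold change of -0.58 ± 0.23 (limma, adjusted p = 0.201).

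In all, among the 41 tested members, replicate 3 gave the top value of the HFpEF libraries 16 times, the bottom value 15 times and the middle value 10 times. It lay on the other side of the Chow mean from both replicates 1 and 2 in 6 members, Cldn5, Sox17, Vegfc, Nrp2, Angpt1 and Apln.

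**Figure D3:**
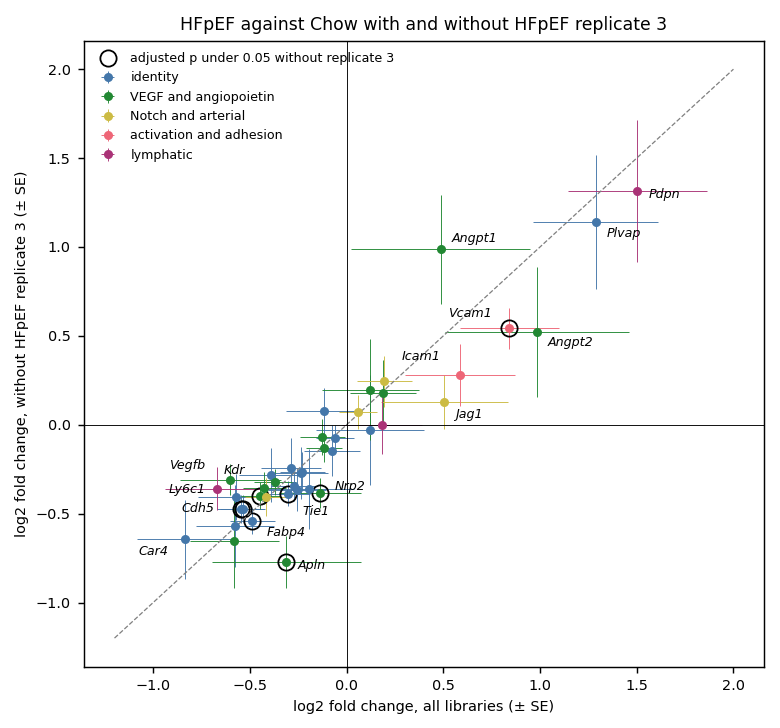
log2 fold change of each tested member, HFpEF against Chow, with all libraries (x axis) and without HFpEF replicate 3 (y axis), each with its SE, coloured by group of genes. Points on the dashed line are equal in both fits, circled points have an adjusted p under 0.05 without replicate 3, and Angpt1 (0.49 and 0.99) and Apln (-0.31 and -0.77) lie far from the line.

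Among the Notch and arterial genes, the ligand Dll4 was lower in HFpEF and the receptor Notch1 overlapped. Dll4 (chr2:119325784-119335962, plus strand), the tip cell ligand, read 9.17, 11 and 9.53 FPKM in Chow and 7.07, 7.8 and 7.22 FPKM in HFpEF. All HFpEF libraries were lower, at a log2 fold change of -0.42 ± 0.11 (limma, adjusted p = 0.119) and -0.41 without replicate 3 (limma, adjusted p = 0.0763). Notch1, the receptor, ranged from 5.02 to 5.43 FPKM in Chow and from 5.2 to 5.7 FPKM in HFpEF (log2 fold change 0.06 ± 0.10). Hey1, a transcriptional target of Notch, had 0.20 ± 0.14. Jag1, the ligand that opposes Dll4 in sprouting, had 0.51 ± 0.33, from 12.2 FPKM in HFpEF replicate 3 against 4.29 to 6.06 FPKM in the other libraries, and 0.13 without that library.

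Of 24 further Notch pathway and arterial genes, 4 had an unadjusted p under 0.05 with higher values and 2 with lower values, and none passed adjustment by limma with all libraries. With HFpEF replicate 3 left out, 4 passed with higher values (Notch2, Maml2, Bmx and Gja5) and 1 with lower values (Jag2), where 2.85% and 5.5% of all genes did, and the median was 0.14. Gja5 is also a gap junction gene of atrial cardiomyocytes. Those with the lowest p were Maml2, a co-activator of Notch (1.76, 1.9 and 1.97 FPKM in Chow and 3.15, 2.77 and 2.93 FPKM in HFpEF), the receptor Notch2 (4.06, 3.73 and 3.54 FPKM against 6.28, 5.35 and 8.23 FPKM) and the ligand Jag2 (11.2, 12.7 and 11.6 FPKM against 8.94, 8.54 and 6.82 FPKM). Maml2 and Notch2 were thus higher and Jag2 lower in every HFpEF library.

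RefSeq promoter sequences (GRCm38.p6, from 250 bases before the start site to 50 after it) were at hand for 29 of the members, as 37 promoters, since some genes have several starts. Binding motifs were searched on both strands among these and all 32851 promoters of the same length. The ETS motif CAGGAAG was in 18.9% of members' promoters and in 13.3% of all. The GATA motif AGATAA was in 8.11% and 11.2%, the SOX motif ACAAAG in 16.2% and 18.7%, and the KLF motif CACACCC in 5.41% and 7.95%. The NF-kappaB consensus was GGGRNNYYCC or its reverse complement (R is A or G, Y is C or T, N is any base). It was in 16.2% of members' promoters and 8.46% of all. Its 6 matches were all in genes that were lower in every HFpEF library (Car4, Rgcc, Vegfa, Flt1, Kdr and Dll4), within 14 promoters of 11 such genes, and no ETS match was in these 14. The promoters of the activation and adhesion genes Icam1, Sele and Selp held no match to this strict pattern. Icam1 does hold TGGAAATTCC and Sele GGATATTCCC, each of which misses the pattern by a single letter. Members' promoters as a whole are richer in G and C, with a median of 60.3% against 52.7% over all promoters. The 14 promoters of lower genes are at 61.3%. A match is a description of the letters and not a binding site, and lack of a match does not show that a site is absent.

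The 200 bases before the start site are printed for these 6 genes, with the NF-kappaB match in capitals, and for Pdpn, the only member higher in every HFpEF library that has a promoter in the table, which holds no such match. Each is written 5′ to 3′ on the strand of its gene. Car4 lies on chr11:84957554-84957753 (plus), Rgcc on chr14:79301636-79301835 (minus), Vegfa on chr17:46032378-46032577 (minus), Flt1 on chr5:147726012-147726211 (minus), Kdr on chr5:75978456-75978655 (minus), Dll4 on chr2:119325584-119325783 (plus) and Pdpn on chr4:143299565-143299764 (minus).
Car4: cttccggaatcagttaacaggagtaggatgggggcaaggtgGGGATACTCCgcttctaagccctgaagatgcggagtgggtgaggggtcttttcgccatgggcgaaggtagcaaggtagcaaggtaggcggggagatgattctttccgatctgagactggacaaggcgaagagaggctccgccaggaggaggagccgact
Rgcc: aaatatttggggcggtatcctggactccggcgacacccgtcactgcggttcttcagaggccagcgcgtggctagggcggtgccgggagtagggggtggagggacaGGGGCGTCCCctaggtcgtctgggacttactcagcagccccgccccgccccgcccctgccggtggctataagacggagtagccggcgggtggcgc
Vegfa: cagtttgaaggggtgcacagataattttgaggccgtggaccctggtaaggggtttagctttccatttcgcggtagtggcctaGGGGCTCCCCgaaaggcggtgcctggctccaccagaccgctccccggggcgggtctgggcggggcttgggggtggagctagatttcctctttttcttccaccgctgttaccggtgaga
Flt1: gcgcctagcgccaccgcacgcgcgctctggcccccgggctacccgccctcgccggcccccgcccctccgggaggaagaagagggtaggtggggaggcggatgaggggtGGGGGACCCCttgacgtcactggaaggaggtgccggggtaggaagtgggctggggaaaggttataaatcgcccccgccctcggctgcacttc
Kdr: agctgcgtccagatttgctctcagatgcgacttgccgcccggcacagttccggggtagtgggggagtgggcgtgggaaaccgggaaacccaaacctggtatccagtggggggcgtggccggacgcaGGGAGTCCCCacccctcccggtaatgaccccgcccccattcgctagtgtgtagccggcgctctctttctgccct
Dll4: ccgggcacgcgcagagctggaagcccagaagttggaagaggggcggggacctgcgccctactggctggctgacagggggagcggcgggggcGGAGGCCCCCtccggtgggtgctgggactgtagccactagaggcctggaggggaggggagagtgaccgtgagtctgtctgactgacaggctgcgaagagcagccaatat
Pdpn: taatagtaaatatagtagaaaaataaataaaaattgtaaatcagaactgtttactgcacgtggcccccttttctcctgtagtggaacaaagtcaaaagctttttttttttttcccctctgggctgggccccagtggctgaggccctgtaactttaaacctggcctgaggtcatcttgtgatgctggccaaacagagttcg

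The adhesion molecules of activated endothelium were low in all hearts and higher in HFpEF for Vcam1. Vcam1 (chr3:116109949-116129688, minus strand), which binds monocytes and lymphocytes, read 3.49, 3.32 and 2.98 FPKM in Chow and 4.66, 4.95 and 9.01 FPKM in HFpEF. Every HFpEF library was above Chow and replicate 3 far above, at a log2 fold change of 0.84 ± 0.26 (limma, adjusted p = 0.146). Without replicate 3 it rose by 0.54 (limma, adjusted p = 0.0436). Icam1, which binds leukocyte integrins, read 3.11, 3.67 and 3.98 FPKM in Chow and 3.74, 5.09 and 8.29 FPKM in HFpEF. The groups overlapped through replicate 1, and the log2 fold change was 0.58 ± 0.28, or 0.28 ± 0.18 without replicate 3 (limma, adjusted p = 0.265 and 0.378).

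The selectins, which let leukocytes roll, were near the limit of detection. E-selectin (Sele) was at 0.458, 0.849 and 0.369 FPKM in Chow and 0.422, 0.263 and 1.42 FPKM in HFpEF, and P-selectin (Selp) at 0.111, 0.367 and 0.15 FPKM and 0.425, 0.201 and 0.892 FPKM. Both overlapped between groups and had their highest value in HFpEF replicate 3. Selp is also stored in platelets, and the sum of 8 platelet genes was 20.1 to 26.8 FPKM in Chow and 25.5 to 34.7 FPKM in HFpEF. As few as 7 reads lay behind a value, and both genes were below the level filter and were not tested.

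Of 20 other tested genes of endothelial activation, 5 had an unadjusted p under 0.05, all with higher values, and none passed adjustment by limma with or without HFpEF replicate 3. Procr, the endothelial protein C receptor, read 0.83, 0.797 and 0.529 FPKM in Chow and 1.6, 1.42 and 2.04 FPKM in HFpEF, and Alcam, an adhesion molecule, read 0.424, 0.299 and 0.372 FPKM against 1.62, 0.787 and 1.66 FPKM. Edn1, the vasoconstrictor endothelin, read 1.9, 1.83 and 1.55 FPKM against 2.84, 2.29 and 3.53 FPKM. Procr and Edn1 were separated. Alcam was under 0.5 FPKM in every Chow library and passed the level filter only through HFpEF, so its separation was fixed by the filter. The NF-kappaB inhibitor Nfkbia, a target of that pathway, had a log2 fold change of 0.01. Macrophage and fibroblast genes, which include other sources of Vcam1 and Icam1, were also higher: the sum of 10 macrophage markers was 240 to 302 FPKM in Chow and 297, 405 and 963 FPKM in HFpEF replicates 1, 2 and 3, in the same order as Vcam1 and Icam1, and the sum of 10 fibroblast markers was 730 to 916 FPKM in Chow and 1355, 1417 and 6235 FPKM in HFpEF. Their part in Vcam1 and Icam1 was not tested.

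The 3 lymphatic genes did not move together. Pdpn (chr4:143267431-143299564, minus strand), podoplanin, had the largest fold change of the 41 and read 3.17, 1.59 and 3.6 FPKM in Chow and 5.25, 8.58 and 10 FPKM in HFpEF. All HFpEF libraries were above Chow, for a log2 fold change of 1.50 ± 0.36 (limma, adjusted p = 0.118) and 1.31 ± 0.40 without replicate 3 (limma, adjusted p = 0.119). Prox1 (chr1:190118035-190170714, minus strand) read 12.8, 11.2 and 11 FPKM in Chow and 10.1, 8.16 and 4.7 FPKM in HFpEF, lower in each HFpEF library and lowest in replicate 3, at -0.67 ± 0.27 (limma, adjusted p = 0.206) and -0.36 without it. Flt4, the receptor for VEGF-C, overlapped, with 0.18 ± 0.21 and 0.00 without replicate 3.

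These genes are not restricted to lymphatics. Cardiomyocytes also express Prox1, and the cardiomyocyte markers were lowest in the library where Prox1 was lowest. Podoplanin is also made by mesothelium, and the mesothelial genes Msln and Upk3b, the most abundant of that list, were at 7.3 to 8.96 FPKM and 5.75 to 9.95 FPKM in Chow and at 10.2, 56 and 25.6 FPKM and 13.6, 31.8 and 10.9 FPKM in HFpEF. The list's sum was 19 to 29.7 FPKM in Chow and 36.9, 133 and 59.1 FPKM in HFpEF, whereas Pdpn was highest in replicate 3. The part of either cell type in these values was not tested.

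Of 10 further lymphatic genes tested, 4 had an unadjusted p under 0.05 with higher values and 1 with lower values. Lyve1, a hyaluronan receptor shared with tissue macrophages, read 5.68, 4.9 and 5.95 FPKM in Chow and 8.71, 9.54 and 7.4 FPKM in HFpEF, and the semaphorin Sema3d read 0.629, 0.754 and 0.789 FPKM against 1.68, 2.42 and 1.59 FPKM. Gja1, the gap junction protein that cardiomyocytes also make, was the lower one, at 58.3, 50.1 and 49.9 FPKM against 42.9, 41.4 and 34.5 FPKM. All 3 had separate groups, and without HFpEF replicate 3 Lyve1 and Sema3d passed adjustment by limma, both higher.

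Endothelial genes outside the 43 served as a reference. Among 38 other genes known from most endothelial cells, the median log2 fold change was -0.20, 15 had an unadjusted p under 0.05 with lower values and 2 with higher values, and none passed adjustment by limma with all libraries. Of the 38, 7 passed with lower values and 0 with higher values without HFpEF replicate 3, and the median was -0.21. Those with the lowest p were Gpihbp1, which holds lipoprotein lipase on capillaries (25, 28.7 and 26.9 FPKM in Chow and 15.5, 18.2 and 14 FPKM in HFpEF), Cd300lg, a capillary lipid receptor (46.4, 46.5 and 46.4 FPKM against 30.4, 30.9 and 24.6 FPKM), and Cyyr1 (6.05, 6.38 and 6.15 FPKM against 3.94, 4.09 and 2.99 FPKM). Their mean log2 level was 3.76 ± 0.06 in Chow and 3.55 ± 0.02 in HFpEF (SD, n = 3 each), a difference of -0.20 (exact two-sided permutation p = 0.1, the smallest possible).

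Each gene was then expressed relative to that mean and fitted again. The median of all genes was 0.19 on this scale, so values are read against it. None of the 41 members passed adjustment (0.759% of all genes did), 7 had an unadjusted p under 0.05 and higher values (17.1%, against 24% of all genes), and 4 had lower values (9.76%, against 3.75%). The 4 lower ones were Cdh5 (-0.33 ± 0.12), Ly6c1 (-0.34 ± 0.13), Fabp4 (-0.28 ± 0.12) and Car4 (-0.63 ± 0.25), with limma adjusted p of 0.15 to 0.17. This count was 0 without any one of the Chow libraries (all genes 1.53% to 1.72%) and was 2 without HFpEF replicate 1 (all genes 4.74%).

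Kdr, Flt1 and Dll4 were not among them, at -0.24 ± 0.11, -0.22 ± 0.12 and -0.21 ± 0.10 relative to the reference. The 7 higher members were Plvap (1.49 ± 0.33), Pdpn (1.71 ± 0.37), Vcam1 (1.05 ± 0.25), Angpt2 (1.19 ± 0.48), Icam1 (0.79 ± 0.27), Hey1 (0.40 ± 0.15) and Notch1 (0.27 ± 0.10). Without HFpEF replicate 3, Vcam1 (0.76) and Fabp4 (-0.33) passed adjustment on this scale by limma (adjusted p = 0.0296 and 0.0477), where 5.33% of all genes passed with higher and 0.822% with lower values. Without HFpEF replicate 2, Car4 passed (-0.92, limma, adjusted p = 0.0497), where 0.0562% of all genes passed with lower values.

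**Figure D4:**
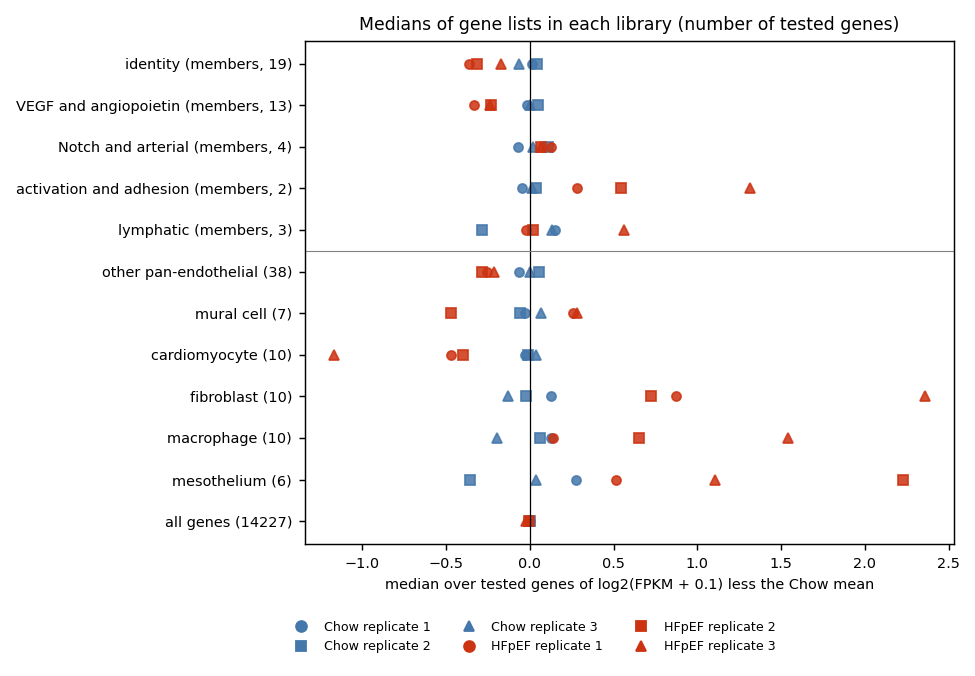
Median log2 ratio to the Chow mean in each library, over the tested genes of each group of members and of lists for other cells (blue Chow, red HFpEF; circle, square and triangle for replicates 1, 2 and 3). Identity genes and the 38 other endothelial genes lie slightly left of 0 in all HFpEF libraries, cardiomyocyte genes lie further left and fibroblast genes to the right, most of all in HFpEF replicate 3.

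Mural cells, which wrap vessels, gave mixed values beside these. The pericyte channel genes Abcc9 and Kcnj8 were lower in every HFpEF library, at 57.1, 52.2 and 54.1 FPKM in Chow and 33.5, 32.6 and 27.1 FPKM in HFpEF for Abcc9. Abcc9 is also made by cardiomyocytes. Rgs5, the most abundant pericyte gene, was at 143 to 165 FPKM in Chow and 109 to 147 FPKM in HFpEF. Acta2, the actin of smooth muscle, was at 53.2, 73.1 and 77.9 FPKM in Chow and 422, 48.8 and 262 FPKM in HFpEF, so that replicate 2 was below Chow and the other HFpEF libraries above. Genes of cartilage and valves summed to 7.16 to 9.14 FPKM in Chow and 16.8 to 65.6 FPKM in HFpEF. Monocyte and neutrophil genes summed to 1.95 to 7.17 FPKM and 3.5 to 19.1 FPKM, and immediate early genes, which respond to handling, to 65.5 to 124 FPKM and 71.6 to 176 FPKM.

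Genes of the wider VEGF, angiopoietin and sprouting pathways went both ways. Of 29 tested, 7 had an unadjusted p under 0.05 with higher values and 3 with lower values (all genes 10.2% and 13.1%), and 17 fold changes were above 0 and 12 below (median 0.15 on the log2 scale). The median was 0.04 without HFpEF replicate 3, with 15 above 0 and 14 below, and 3 higher genes (Sema3c, Fgfr1 and Thbs2) and 1 lower gene (Plxnd1) passed adjustment by limma. Sema3c, a guidance cue for vessels, read 3.09, 3.41 and 3.38 FPKM in Chow and 5.62, 6.35 and 4.81 FPKM in HFpEF. Col18a1, whose fragment endostatin inhibits vessel growth, read 2.4, 2.32 and 3.07 FPKM against 14.1, 4.5 and 18.8 FPKM, and Angpt4, a further ligand of Tek, 0.0902, 0.109 and 0.142 FPKM against 1.05, 0.531 and 1.26 FPKM. Sema3c and Col18a1 were higher in every HFpEF library. Angpt4 was under 0.5 FPKM in every Chow library and passed the level filter only through HFpEF, so its separation was fixed by the filter. None of the 3 passed adjustment by limma with all libraries (lowest adjusted p = 0.0963).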

How the data were processed

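RNA of 6 hearts (3 Chow, 3 HFpEF, grouped by the sample titles) was sequenced. Per the methods, HISAT2 was the aligner and featureCounts the counter of the authors, who deposited FPKM values (build GRCm38 in the submitters' processing notes). The annotation and the strand setting are not given in the sources used here, and every value column of the table belongs to a sample.

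Gene names, positions and exon lengths came from GENCODE M21, which held 54495 of the 54532 identifiers. FPKM multiplied by exon length gave whole reads for 96.05% to 96.24% of values (tolerance 1e-06), which gave the depth. Libraries were brought to one scale by medians of ratios and taken to log2 after adding 0.1 (the pseudocount). The factors were 0.9986 to 1.0018, so this step changed the deposited values little. Genes with FPKM of at least 0.5 in 3 or more libraries were fitted with limma 3.58.1 in R 4.3.3. The trend and robust options were used, tested on simulated data, with Benjamini-Hochberg adjustment over 14227 genes. Fold changes are on the log2(FPKM + 0.1) scale, which understates low genes. A second fit took each gene relative to the mean of 38 other endothelial genes. Figures used Python 3.11.15 and matplotlib 3.10.9. Promoters were searched by exact letters, except that the NF-kappaB consensus allowed several letters at some positions.

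Per-library values are given for members whose groups did not overlap or with an unadjusted p under 0.05, for a fixed list of well-known members, and for up to 3 genes of lowest p in each further list and up to 2 most abundant genes of lists for other cells. Nrp2, Apln, Ephb4, Nfkbia and the atrial genes were named after their values were seen. Members and lists were chosen with earlier results of these data known. The sum of a list is over all its measured genes. Alternatives were other scalings, pseudocounts, filters and limma settings, voom on recovered reads, a replicate block, and each library left out in turn. Protein sequences were not used here.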

Additional observations from a re-analysis of the deposited data

How the results depend on the processing

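No member passed the adjusted threshold under any alternative that kept all libraries except limma array weights. These gave 5, all lower (Cdh5, Tie1, Ly6c1, Fabp4 and Kdr), where 4.66% of all genes passed with lower values. The weight was 0.168 for HFpEF replicate 3 and 1.23 to 1.74 for the other libraries, so that fit came near to leaving replicate 3 out. The same 5 passed without that library. Leaving out 1 library gave 0 to 8 such members (all genes 0.0141% to 8.35%). Relative to the other endothelial genes it gave 0 to 2 (all genes 0.00703% to 6.16%). Scaling to equal sums of nuclear genes left 3 members lower and 7 higher at an unadjusted p under 0.05 (13 and 3 in the report; all genes 4.24% and 25.7%), and 6 lower and 9 higher without overlap (15 and 3; all genes 7.26% and 35.9%). Quantile normalization left 6 of the 41 tested members lower at that p and 8 lower without overlap (all genes 11.8% and 19.3%). The share without overlap was thus close to that of all genes. Leaving out 1 library gave 3 to 6 members higher without overlap (all genes 19% to 22.1%). Under equal sums the group medians were -0.020 for identity, 0.11 for VEGF and angiopoietin and 0.38 for Notch and arterial genes, where the median of all genes was 0.24. Less the median of all genes, the identity group kept to -0.34 to -0.11 over all alternatives and the VEGF and angiopoietin group to -0.32 to -0.05. The identity median was -0.16 under quantile normalization. The VEGF and angiopoietin median was -0.32 with array weights and -0.31 to -0.070 with 1 library left out. Relative to other endothelial genes, leaving out 1 library gave 0 to 5 lower and 4 to 8 higher members at an unadjusted p under 0.05. The shares of all genes were 1.53% to 5.13% and 14.1% to 25.1%. The identity members as reference gave 2 lower (all genes 2.92%). Single genes that turned under equal sums were Pecam1 (0.19), Emcn (0.13), Esam (0.025), Cldn5 (0.057), Sox17 (0.17), Robo4 (0.015), Nrp1 (0.14), Nrp2 (0.11) and Tek (0.13). Pecam1 turned to 0.10 under quantile normalization, and with array weights Emcn turned to 0.026 and Vwf to -0.041. With 1 library left out, Emcn ran from -0.29 to 0.078, Sox17 from -0.15 to 0.027, Vwf from -0.044 to 0.37, Vegfc from -0.11 to 0.38, Apln from -0.77 to 0.034 and Flt4 from -0.0034 to 0.29. The causes were not tested. Chow and HFpEF libraries share replicate numbers, but same-numbered libraries did not deviate together (correlations of -0.07 to -0.04). The labels pair no animals, and so few libraries cannot exclude a batch shared by replicate number. With the replicate number as a block, 0 members passed adjustment, with 11 lower and 5 higher at an unadjusted p under 0.05 (all genes 11.9% and 9.17%). With that block and relative to other endothelial genes 0 passed, with 1 lower and 6 higher (all genes 3.42% and 20%). Depth limits the 6 members with under 100 reads in a library, Sele and Selp among them, and 3 libraries a group limit every p.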
